A study of Mus musculus with 6 samples.

Results

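A set of 9 genes known as markers or hormones of white fat, or as imprinted genes active in growing fat, was followed in brown adipose tissue (BAT): Sncg, Nnat, Mest, Agt, Npr3, Tcf21, Dpep1, Enpep and Trim14. They were chosen by symbol, with earlier results of these data known. All 9 were found among the 35976 rows of the deposited gene count table. The tissue came from mice in which Cars2, the mitochondrial cysteinyl-tRNA synthetase, was deleted by crossing with Adiponectin-Cre mice (AKO, 3 libraries), and from wild type littermates (WT, 3 libraries). Both groups were kept at 4 °C for 4 h before BAT was frozen, so no library shows the tissue without cold. Adiponectin-Cre acts in mature adipocytes of all fat depots, and the other cells of the tissue keep Cars2. The study names floxed mice as its AKO controls, and whether these 3 WT mice carried floxed alleles, like their age and sex, is not given in the labels. The study's methods state that male mice were used in its chow and high-fat diet experiments, in cohorts matched for sex and age. Nor do the labels say that each library came from a separate mouse, so the p-values below measure only the spread between these libraries.

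White adipocytes store fat in 1 large droplet and secrete hormones such as leptin, whereas brown adipocytes burn fat in many mitochondria. When BAT takes on features of white fat, a process called whitening, genes of the white type are commonly used to follow it. Imprinted genes are read from only the maternal or only the paternal copy, which is marked by methylation of CpG sites in DNA, and several of them act on growth and on fat cell number or size. The counts here were not split by parental copy, and methylation was not measured.

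The libraries held 6540619 to 8461685 counted reads and 17714 to 18862 detected genes. Cars2 was at 786, 459 and 632 CPM (reads scaled to a common library size with TMM factors, as all CPM below) in WT and at 220, 248 and 132 in AKO, a log2 fold change (AKO minus WT) of -1.64 ± 0.23 (SE, edgeR adjusted p = 0.000192). Brown fat identity was clear in both groups, with Ucp1, the uncoupling protein of brown fat mitochondria, at 14006 to 15622 CPM in WT and 3154 to 6435 in AKO. Of 13007 genes tested by edgeR's quasi-likelihood test, 37.6% were called at a Benjamini-Hochberg adjusted p under 0.05, 20.2% as higher in AKO and 17.5% as lower. The higher genes made up 53.6% of these calls, and 65.2% when only library totals set the scale. They made up 90.7% when the pan-adipocyte genes Adipoq, Plin1, Fabp4, Cidec, Lipe and Pnpla2 set it. This pan-adipocyte scaling moved the median of all genes to 0.39 on the log2 scale against 0.01. On a longer list of 10 pan-adipocyte genes that holds these, 5 fell, so both scales are given below where a direction depends on them. In bulk tissue, fewer cells of a type and less RNA per cell cannot be told apart.

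Of the 9 genes, 8 passed the filter on low counts and 4 rose in AKO BAT: Sncg, Trim14, Nnat and Dpep1. None fell. Sncg and Trim14 rose the most, by 5.52-fold and 4.18-fold. Mest, Enpep, Npr3 and Agt were not called, and Tcf21 had no count in any library. In 4 of the 8 every AKO library lay above every WT library, whereas 25.7% of all genes tested showed that order. None showed the reverse order, which 24.4% of all genes did (50.1% showed either). As a median, the log2 fold change was 0.72 over the 8 and 0.01 over all genes tested. The genes were not chosen blind to these data, so the comparison with all genes is only a description. The other 4 genes had WT and AKO libraries that overlapped.

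**Figure D1:**
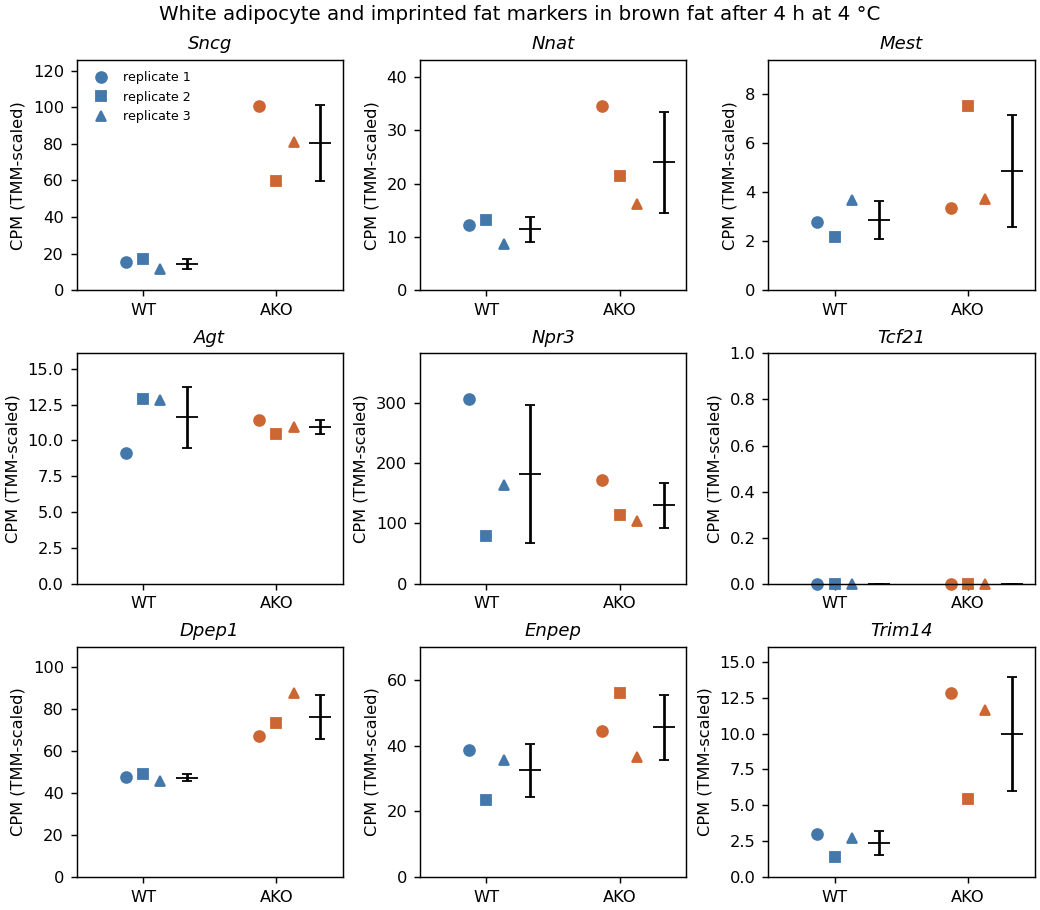
Level of each of the 9 genes in CPM (vertical axis, linear, own scale in each panel) in the 3 WT and 3 AKO libraries; points are single libraries and the bar with its whiskers is the mean ± SD. For Sncg, Nnat, Dpep1 and Trim14 the AKO points all lie above the WT points, and Tcf21 is at 0 in all 6.

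**Figure D2:**
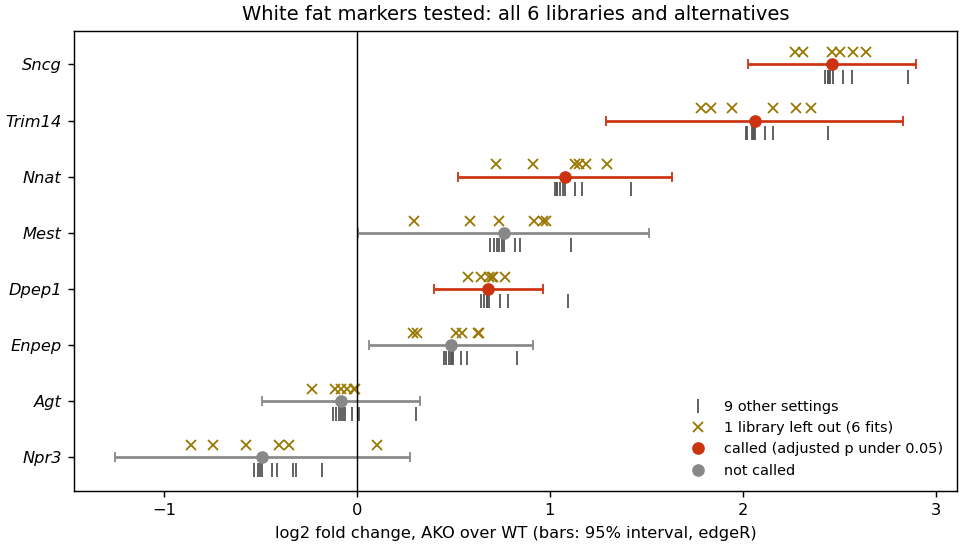
Log2 fold change (AKO minus WT) of the 8 genes tested, with the 95% interval from edgeR, the value under 9 other settings (ticks) and with each library left out in turn (crosses). Sncg, Trim14, Nnat and Dpep1 stay right of 0 under all of them, whereas Npr3 and Agt lie on both sides.

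Sncg encodes gamma-synuclein, a small lipid-binding protein of sensory neurons that is also abundant in white adipocytes. It was at 15.3, 16.8 and 11.5 CPM in WT BAT and at 101, 59.5 and 81.3 CPM in AKO BAT. The lowest AKO library was 3.54 times the highest WT library. This gave a log2 fold change of 2.46 ± 0.20 (SE, 95% interval 2.03 to 2.90, edgeR adjusted p = 5.48e-06), and it stayed between 2.27 and 2.86 and was called under all 15 alternatives. Sncg lies on chromosome 14 (GRCm38, 34370274 to 34374789, minus strand).

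Sncb, the beta-synuclein gene, had no count in any library. The summed level of 12 markers of Schwann cells and nerve, where Sncg is also found, was 249 to 311 CPM in WT and 207 to 282 in AKO, and of the 6 tested none rose and 2 fell (median log2 fold change -0.48). The part of these cells in the Sncg level was not tested.

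The study examined EBF2, a transcription factor of brown adipocytes, so the promoters were searched on both strands for the core of the EBF site, CCCNNGGG. RefSeq windows of 300 bases, from 250 before to 50 after a start site (GRCm38.p6), were matched for 8 of the 9 genes, in 10 windows. Trim14 had no window. The EBF core lay in the windows of 3 of the 8 genes, Sncg, Tcf21 and Mest, and 13.7% of 32851 windows of all genes held it. By window it was 5 of 10, but 2 of the 3 Mest windows overlap almost fully and share a match. The 250 bases before the start of Sncg, which rose the most, and of Tcf21, which had no read, are shown to compare them, with the EBF core in capitals. They come from the minus strand of chr14:34374670-34374919 and chr10:22820144-22820393.
Sncg: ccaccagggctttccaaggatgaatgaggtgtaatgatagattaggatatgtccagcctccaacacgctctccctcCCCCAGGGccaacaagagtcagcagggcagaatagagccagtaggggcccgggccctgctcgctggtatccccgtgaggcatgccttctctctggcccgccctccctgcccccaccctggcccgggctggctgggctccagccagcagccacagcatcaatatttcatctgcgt
Tcf21: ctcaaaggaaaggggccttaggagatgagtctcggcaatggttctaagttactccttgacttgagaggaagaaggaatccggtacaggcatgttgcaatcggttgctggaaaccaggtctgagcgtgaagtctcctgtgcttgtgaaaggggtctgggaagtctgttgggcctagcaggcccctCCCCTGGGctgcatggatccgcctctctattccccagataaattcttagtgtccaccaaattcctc
The core began 174 bases before the start of Sncg and 66 bases before that of Tcf21. A match is a description of the letters and not a measured binding site. AGGTCA, the nuclear receptor half-site (16.3% of all windows), TGACGTCA, the cyclic AMP response element (1.79%), its variant TGACGCAA (0.490%), TGATGCAA, the ATF4 composite site (0.895%), and GAAANNGAA, the core of the interferon-stimulated response element (8.56%), had no match in the 10 windows. The promoter of Trim14 was not searched for any of these.

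Trim14 encodes an adaptor at the mitochondrial surface that takes part in RNA and DNA sensing and is induced by interferon. It had 25, 11 and 20 reads in WT and 107, 43 and 82 in AKO, that is 3.00, 1.4 and 2.73 CPM against 12.8, 5.46 and 11.7 CPM. The groups did not overlap, although the AKO libraries spanned a 2.35-fold range with AKO replicate 2 the lowest. On the log2 scale the rise was 2.06 ± 0.36 (SE, 95% interval 1.29 to 2.83, edgeR adjusted p = 0.000739), and Trim14 was called under all 15 alternatives.

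Trim14 (chromosome 4, 46493781 to 46536141, minus strand) shares 1356 of its 4338 exon bases, 31.3%, with Nans on the opposite strand. Nans, the sialic acid synthase gene, also rose, from 5.76, 6.24 and 6.01 CPM to 13.3, 14.2 and 12.2 CPM, by 1.14 ± 0.18 on the log2 scale (edgeR adjusted p = 0.000435). No source names the strand mode of the read counting, so reads in the shared bases cannot be told apart. Among the AKO libraries the genes were ordered differently: AKO replicate 2 was the highest AKO library for Nans and the lowest for Trim14.

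Trim14 rose among relatives. Of 12 interferon-linked TRIM genes, a family of ubiquitin ligases and adaptors that includes Trim14, 11 were tested, 8 rose (Trim14 among them) and none fell (median log2 fold change 1.33). Trim30a, an inhibitor of inflammatory signalling in mouse, rose by 2.40 ± 0.30 and Trim25, the ligase that activates RIG-I, by 1.23 ± 0.15 (edgeR adjusted p = 7.09e-05 and 6.53e-05). Trim30a and Trim30d belong to a family of near-identical copies among which reads may be shared, so their values are uncertain.

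Of 11 RNA and DNA sensing genes around Trim14, 6 rose and 2 fell. The sensors of double-stranded RNA Ifih1 (MDA5) and Ddx58 (RIG-I) rose by 1.88 ± 0.19 and 1.70 ± 0.21 on the log2 scale (edgeR adjusted p = 1.9e-05 and 6.69e-05). Mavs, the adaptor on the mitochondrial surface to which both sensors and Trim14 couple, fell instead, from 145, 170 and 168 CPM to 125, 68.6 and 89.7 CPM (log2 fold change -0.77 ± 0.18, edgeR adjusted p = 0.00588), a call not made with pan-adipocyte scaling (-0.39). All 20 of 20 interferon-induced genes rose, with a median of 2.98. Macrophage markers rose with them, 11 of 12, and their summed level was 239.5 to 295 CPM in WT and 873 to 1199 CPM in AKO. Their part in the Trim14 result was not tested.

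Dpep1 encodes a membrane dipeptidase that cleaves cysteinylglycine, the dipeptide left when glutathione is broken down outside the cell. It was at 47.6, 49.0 and 45.5 CPM in WT and at 67.3, 73.3 and 87.7 CPM in AKO. WT libraries lay close together, and every AKO library was above them. Dpep1 rose by 0.68 ± 0.13 on the log2 scale (SE, 95% interval 0.40 to 0.96, edgeR adjusted p = 0.00142), and it was called under all 15 alternatives (0.57 to 1.09). Dpep1 lies on chromosome 8 (123186242 to 123201812, plus strand).

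Of 18 genes of glutathione and dipeptide breakdown, Dpep1 included, 11 were tested, of which 7 rose, 1 fell and 3 were not called (median log2 fold change 0.99). Dpep2, a related dipeptidase that also acts on leukotrienes, was at 0.60, 0.382 and 0.410 CPM in WT and at 9.24, 6.73 and 9.68 CPM in AKO, a rise of 4.15 ± 0.34 on the log2 scale (edgeR adjusted p = 5.34e-06). Its values in WT replicates 2 and 3 stand for only 3 reads each, so the size of the rise is uncertain. Chac1, which breaks down glutathione inside the cell and is a target of the ATF4 stress pathway, rose by 3.13 ± 0.40 (edgeR adjusted p = 0.000101). Cndp2, a cytosolic dipeptidase for cysteinylglycine, rose by 1.6 ± 0.15 (edgeR adjusted p = 1.11e-05). Oplah, which opens the ring of 5-oxoproline on the way back to glutamate, fell from 224, 302 and 264 CPM to 172, 158 and 165 CPM (log2 fold change -0.67 ± 0.13, edgeR adjusted p = 0.00194), which was not called with pan-adipocyte scaling (-0.27).

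Nnat encodes neuronatin, a small membrane protein of the endoplasmic reticulum that is read from the paternal copy and is found in brain, islets and fat. It was at 12.2, 13.2 and 8.74 CPM in WT and at 34.6, 21.5 and 16.1 CPM in AKO. The groups did not overlap, but the AKO libraries spanned a 2.15-fold range. Nnat rose by 1.08 ± 0.26 on the log2 scale (SE, 95% interval 0.52 to 1.63, edgeR adjusted p = 0.00568). It was called under all 15 alternatives, at 0.72 to 1.42, with the lowest value where AKO replicate 1, the highest library, was left out.

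Nnat (chromosome 2, 157560078 to 157562522, plus strand) lies within an intron of Blcap, on the opposite strand, and shares no exon base with it. Blcap, a gene of apoptosis, was not called, at -0.12 ± 0.12 on the log2 scale (edgeR adjusted p = 0.477). Nnat reads per 1000 Blcap reads were 214, 251 and 166 in WT and 670, 399 and 366 in AKO. The groups did not overlap in this ratio either.

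Mest, also read from the paternal copy, encodes a protein of the hydrolase family and is known in mouse as a marker of growing white adipocytes. It was at 2.76, 2.16 and 3.69 CPM in WT and at 3.36, 7.50 and 3.70 CPM in AKO, from 17 to 59 reads a library. AKO replicate 2 was 2.23 times the lowest AKO library, and AKO replicate 1 lay within the WT range. The difference on the log2 scale was 0.76 ± 0.35 (SE, 95% interval 0.01 to 1.51) and Mest was not called (edgeR adjusted p = 0.104). The value was 0.30 without AKO replicate 2, and was called without AKO replicate 1 (0.98, edgeR adjusted p = 0.0499) and with pan-adipocyte scaling (1.11, edgeR adjusted p = 0.0248).

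Mest (chromosome 6, 30723547 to 30748465, plus strand) shares 912 of 3945 exon bases, 23.1%, with the end of Copg2 on the opposite strand, so its reads too are uncertain. Copg2, a vesicle coat subunit read from the maternal copy in some tissues, rose from 10.9, 13.9 and 13.1 CPM to 19, 26.2 and 22.6 CPM (log2 fold change 0.84 ± 0.17, edgeR adjusted p = 0.00241). Of the other imprinted neighbours, Cep41 was not called, at 0.19 on the log2 scale, and Klf14 had no count.

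The promoters of Nnat and Mest held the most CpG sites of the 10 windows, 17 each, against a median of 7 in all windows and 1 in that of Agt. Mest has 3 start sites in RefSeq, with 17, 17 and 8 CpG sites. The 250 bases before the start of each gene are shown for these sites, the letters on which imprints are set, with every CpG in capitals (plus strand, chr2:157559828-157560077 and chr6:30737800-30738049).
Nnat: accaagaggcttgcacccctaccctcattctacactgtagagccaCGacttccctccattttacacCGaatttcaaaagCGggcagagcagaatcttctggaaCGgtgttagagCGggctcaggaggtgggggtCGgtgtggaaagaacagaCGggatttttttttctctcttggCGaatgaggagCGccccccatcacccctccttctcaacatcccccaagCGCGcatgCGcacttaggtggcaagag
Mest: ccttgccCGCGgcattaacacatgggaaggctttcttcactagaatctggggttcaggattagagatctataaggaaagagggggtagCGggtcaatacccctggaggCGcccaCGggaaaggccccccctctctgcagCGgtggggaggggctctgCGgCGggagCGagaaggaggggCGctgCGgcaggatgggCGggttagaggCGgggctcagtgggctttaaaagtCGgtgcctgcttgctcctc
These stretches hold 12 and 14 CpG sites. Both genes thus have CpG-rich starts, and the level of 1 rose while the other was not called.

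Of 27 paternally expressed genes, which include Nnat and Mest, 16 were tested, and Nnat rose while 5 fell, a split that turned to 5 higher and 1 lower with pan-adipocyte scaling. Of 26 maternally expressed genes, 17 were tested, 6 rose and 1 fell, and with pan-adipocyte scaling 8 were higher and none lower. The median log2 fold changes were -0.05 and 0.27. Among all genes tested 20.2% rose and 17.5% fell. The higher calls of the paternal list were 2 without WT replicate 1 and 4 without AKO replicate 1, so Nnat was not the one higher gene there. Its lower calls were 3 without WT replicate 1, WT replicate 2 or AKO replicate 3, and the higher calls of the maternal list were 10 without AKO replicate 1. Several of these genes are imprinted only in some tissues, and imprinting in BAT was not measured.

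Igf2, the growth factor read from the paternal copy, and H19, the noncoding RNA beside it read from the maternal copy, moved in opposite directions. Igf2 fell from 17.7, 17.3 and 16.3 CPM to 10.9, 8.13 and 8.4 CPM (log2 fold change -0.90 ± 0.18, edgeR adjusted p = 0.00172). H19 was at 8.63, 2.67 and 13.8 CPM in WT and at 20.9, 33.8 and 32.2 CPM in AKO, a rise of 1.80 ± 0.37 (edgeR adjusted p = 0.00247). Igf2 reads per 1000 H19 reads ranged from 1178 to 6476 in WT and from 241 to 523 in AKO, without overlap. The fall of Igf2 was not called with pan-adipocyte scaling (-0.53, edgeR adjusted p = 0.103).

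Nap1l5, a nucleosome assembly protein gene, fell from 5.04, 8.28 and 5.87 CPM to 0.960, 3.30 and 0.996 CPM (log2 fold change -1.85 ± 0.41, edgeR adjusted p = 0.00353). Peg3, a zinc finger gene, fell by 0.92 ± 0.25 on the log2 scale (edgeR adjusted p = 0.0119), a call lost with pan-adipocyte scaling and without WT replicate 1 (-1.29 to -0.56 over the 15 alternatives). Nap1l5, like Mcts2 (log2 fold change -0.68, edgeR adjusted p = 0.0326) and Zrsr1 (-0.62, edgeR adjusted p = 0.0369), lies within an intron of a host gene. Of the 3 hosts, H13 of Mcts2 fell (-0.47, edgeR adjusted p = 0.0165), whereas Herc3 of Nap1l5 and Commd1 of Zrsr1 were at 0.24 and -0.03 and were not called. The calls of Mcts2, Zrsr1 and H13 were weak: over the 15 alternatives, Mcts2 ranged from -0.88 to -0.32, Zrsr1 from -0.90 to -0.26 and H13 from -0.59 to -0.093. Leaving out WT replicate 2 or AKO replicate 3 ended all 3 calls, and so did, for Mcts2, WT replicate 1 or AKO replicate 2, for Zrsr1, WT replicate 3 or AKO replicate 1, and for H13, WT replicate 3 or AKO replicate 2. Zrsr1 was also not called with upper-quartile factors, with library totals or with pan-adipocyte scaling.

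On the maternal side, Dcn, the collagen-binding proteoglycan decorin, rose by 0.91 ± 0.14 and Meg3, a noncoding RNA, by 0.79 ± 0.15 (edgeR adjusted p = 0.000347 and 0.00151). Gnas, which encodes the stimulatory G protein alpha subunit that couples beta-adrenergic receptors to cyclic AMP, fell by 0.72 ± 0.14 on the log2 scale (edgeR adjusted p = 0.00172) and was not called with pan-adipocyte scaling (-0.33). Dcn is also a marker of fibroblasts. Of 14 fibroblast and progenitor markers 11 rose, and their summed level was 1821 to 2139 CPM in WT and 3266 to 3960 CPM in AKO. Their part in the imprinted gene values was not tested.

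**Figure D3:**
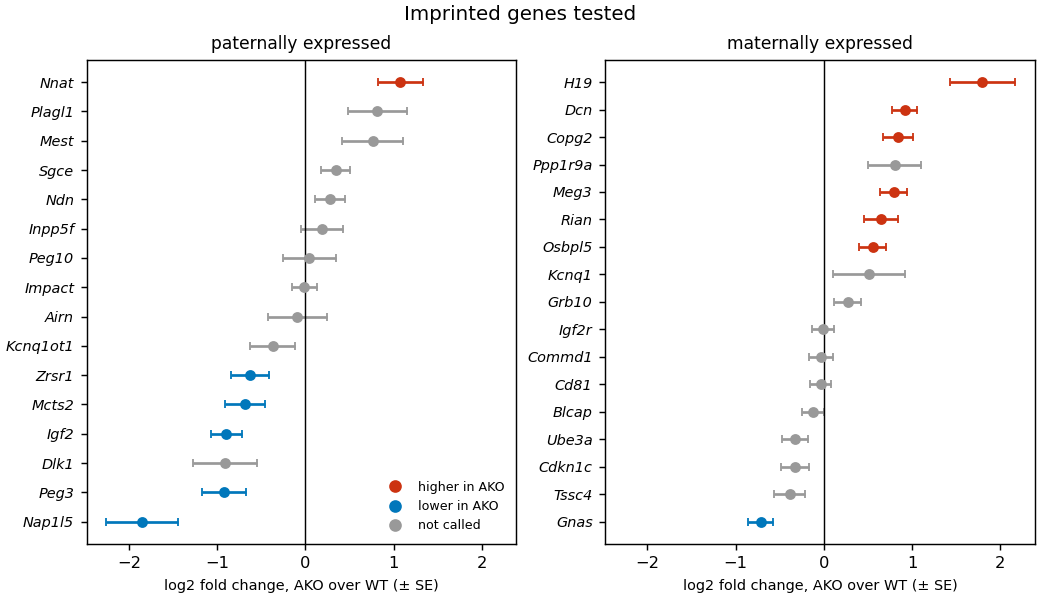
Log2 fold change (AKO minus WT, ± SE from edgeR) of the tested imprinted genes, paternally expressed (16) and maternally expressed (17). With all 6 libraries Nnat is the paternally expressed gene called higher (4 such genes without AKO replicate 1), and Igf2 and H19 lie on opposite sides of 0.

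Agt encodes angiotensinogen, the precursor of the angiotensin peptides, which adipocytes secrete. It was at 9.11, 12.9 and 12.8 CPM in WT and at 11.4, 10.4 and 11 CPM in AKO, and all 3 AKO libraries lay within the WT range. The difference was -0.08 ± 0.19 on the log2 scale (SE, 95% interval -0.49 to 0.33, edgeR adjusted p = 0.760). Its sign turned with library totals (0.013) and with pan-adipocyte scaling (0.31), without a call. Agt lies on chromosome 8 (124556534 to 124569706, minus strand).

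Enpep encodes glutamyl aminopeptidase, which cuts angiotensin II to angiotensin III, and the study assayed it among its whitening genes. By qPCR the study reported higher Enpep in BAT of Cars2-deficient mice after cold, with larger groups of AKO and control mice than here. In the libraries here the measure was read counts. Enpep was at 38.7, 23.4 and 35.6 CPM in WT and at 44.5, 56.2 and 36.4 CPM in AKO. AKO replicate 3 lay below the highest WT library, so the groups overlapped. On the log2 scale the difference was 0.49 ± 0.20 (SE, 95% interval 0.06 to 0.91) and the gene was not called (edgeR adjusted p = 0.0669). It was called with library totals (0.57, edgeR adjusted p = 0.0428), with pan-adipocyte scaling (0.83, edgeR adjusted p = 0.00736), with no filter on low counts (0.45), without WT replicate 1 (0.63) and without AKO replicate 3 (0.63). Enpep lies on chromosome 3 (129269175 to 129332720, minus strand).

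Of 23 genes of the angiotensin system, Agt and Enpep included, 16 were tested, 6 rose and none fell (median log2 fold change 0.24). With DESeq2 or without WT replicate 2, 4 of them were called. With all 6 libraries, genes called in either direction were about as frequent here as among all genes tested (37.6%, 20.2% higher and 17.5% lower). Anpep, also on the dipeptide list, the aminopeptidase that acts after Enpep on angiotensin III, was at 8.39, 8.28 and 9.42 CPM in WT and at 36.4, 26.9 and 37.7 CPM in AKO (log2 fold change 1.95 ± 0.17, edgeR adjusted p = 8.91e-06). Ace, which makes angiotensin II, rose by 0.62 ± 0.16 and Prcp, a carboxypeptidase that trims it, by 1.11 ± 0.23 (edgeR adjusted p = 0.00833 and 0.00281).

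The receptor gene Agtr1a was at 7.92 to 12 CPM in WT and 9.40 to 11 CPM in AKO and was not called (log2 fold change 0.10 ± 0.20, edgeR adjusted p = 0.735). Agtr1b and Agtr2 had no count. Ren1, the renin gene, ranged from 0 to 3.68 CPM and was not tested.

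Npr3 encodes the clearance receptor that removes natriuretic peptides, the heart hormones that drive fat breakdown through Npr1. It was at 306, 78.4 and 163 CPM in WT and at 173, 114 and 104 CPM in AKO. The WT libraries alone spanned a 3.90-fold range, in which all AKO libraries lay. On the log2 scale Npr3 was at -0.49 ± 0.35 (SE, 95% interval -1.26 to 0.27, edgeR adjusted p = 0.298). WT replicate 1 set its direction: without it the value was 0.11 (edgeR adjusted p = 0.808), whereas without WT replicate 2 it was -0.86 and called (edgeR adjusted p = 0.0299). With no filter on low counts Npr3 was called at -0.53 (edgeR adjusted p = 0.00120).

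Npr3 lies on chromosome 15 (11839896 to 11907287, minus strand). Npr1, the guanylyl cyclase receptor that carries the signal, fell from 129, 135 and 171 CPM to 81.3, 70.5 and 91.0 CPM, with no overlap (log2 fold change -0.84 ± 0.15, edgeR adjusted p = 0.000765). Npr1 reads per 1000 Npr3 reads were 422, 1718 and 1044 in WT and 471, 620 and 878 in AKO. The ratio of signalling to clearance receptor thus overlapped between the groups. Of 18 genes of the natriuretic peptide system, Npr3 included, 12 were tested, none rose and 3 fell, the others being Furin, a protease that matures peptide precursors (-0.69 ± 0.13, edgeR adjusted p = 0.00139), and Ide, a protease that degrades peptides (-0.47 ± 0.13, edgeR adjusted p = 0.0113, not called without WT replicate 3). With TMM factors 37.6% of all genes tested were called (20.2% higher, 17.5% lower), a larger share than among these 12. With pan-adipocyte scaling none of the 3 lower calls held (Npr1 at -0.44, edgeR adjusted p = 0.103) and 1 gene was called higher.

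**Figure D4:**
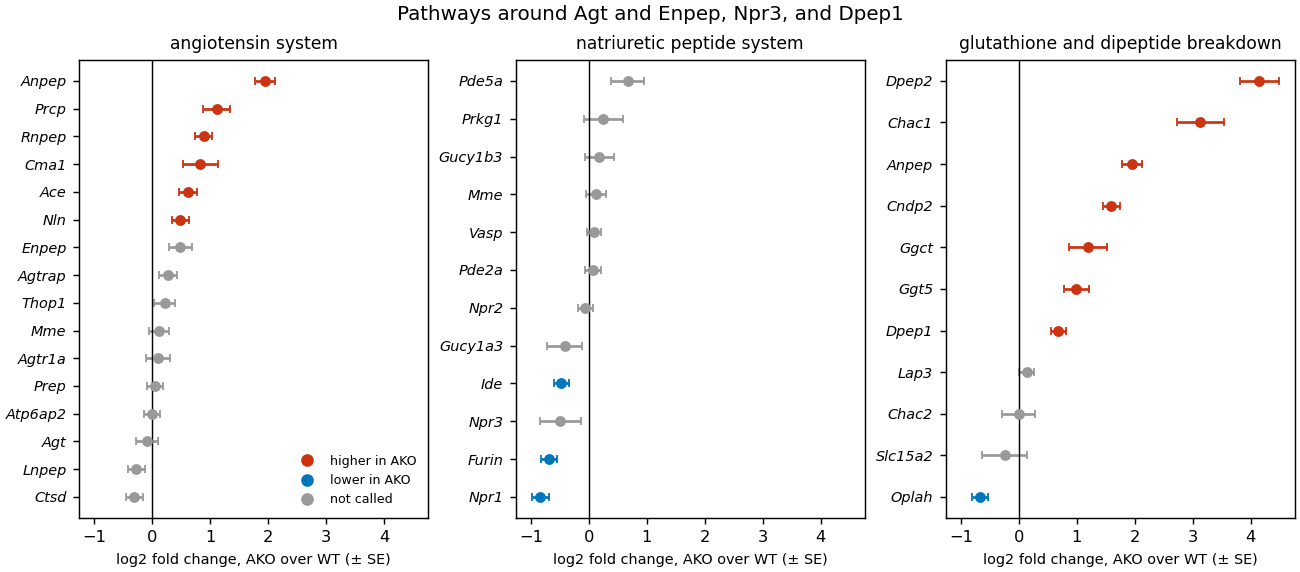
Log2 fold change (AKO minus WT, ± SE from edgeR) of the tested genes of the angiotensin system, the natriuretic peptide system and glutathione and dipeptide breakdown. Called genes of the first and last list lie mostly right of 0 and the 3 called genes of the natriuretic list left of it. Of all genes tested, 37.6% were called.

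Tcf21 encodes a transcription factor of white fat precursors and of visceral fat that is known as a marker absent from brown fat. It had 0 reads in all 6 libraries. A count of 0 allows a level of up to 0.360 to 0.427 CPM (3 counts, counting error only). Tcf21 (chromosome 10, 22817281 to 22820174, minus strand) was thus not detectable at this depth in either group.

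Of 12 regulators of white fat lineage, 9 were tested, 3 rose and 1 fell, beside 20.2% higher and 17.5% lower among all genes tested. Tbx15, a T-box gene of subcutaneous and brown fat, rose from 4.08, 4.07 and 4.78 CPM to 7.32, 11.1 and 9.40 CPM (log2 fold change 1.10 ± 0.23, edgeR adjusted p = 0.00241). Rbl1, the pocket protein p107, rose by 1.35 ± 0.31, and Hoxc8, a homeobox gene of white fat that represses the brown programme in mouse, by 1.17 ± 0.28 (edgeR adjusted p = 0.00454 and 0.00586). Tle3, a corepressor that favours the white programme, fell by 0.37 ± 0.13 (edgeR adjusted p = 0.0369), a call that 8 of the 15 alternatives, 4 of them with a library left out, did not make (-0.45 to 0.015). Wt1, the mark of visceral fat and mesothelium, reached at most 0.127 CPM.

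Several of the other white fat markers rose with Sncg. Of 12, 7 were tested, 5 rose and none fell (median log2 fold change 1.17). Lep, the leptin gene, was at 5.40, 7.51 and 7.79 CPM in WT and at 44.6, 52.5 and 32.9 CPM in AKO (log2 fold change 2.66 ± 0.21, edgeR adjusted p = 4.54e-06). Psat1, an enzyme of serine synthesis that is also a target of ATF4, rose by 2.22 ± 0.23, and Inhbb, an activin subunit, by 3.30 ± 0.66 (edgeR adjusted p = 2.59e-05 and 0.00192), with AKO replicate 2 at 32.1 CPM against 7.56 and 4.56 CPM. Retn, the resistin gene of white adipocytes, was not called, at -0.34 ± 0.18 (edgeR adjusted p = 0.153). It was called lower with no filter on low counts and without AKO replicate 1, and its sign turned with pan-adipocyte scaling. Slc7a10, the other tested gene of this list that did not rise, was at -0.30 ± 0.20 (edgeR adjusted p = 0.263). Its sign turned with that scaling too. Hoxc8, Hoxc9, Hoxc10 and Wt1 stand on this list and on that of lineage regulators.

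Sncg reads per 1000 Lep reads ranged from 1474 to 2844 in WT and from 1133 to 2472 in AKO, and so overlapped. Of 20 brown fat markers 15 fell and 1 rose, with a median of -0.77. With pan-adipocyte scaling 9 of them still fell.

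Levels of different genes were set side by side per kilobase of merged exons. In WT BAT, Npr3 (19.5 CPM per kilobase), Dpep1 (19.1) and Sncg (17.1) led, followed by Enpep (6.93), Nnat (6.24), Agt (6.14), Mest (0.728), Trim14 (0.548) and Tcf21 (0). Neighbours in this order overlapped except at the steps from Sncg to Enpep, from Agt to Mest and from Trim14 to Tcf21. In AKO BAT, Sncg came first at 94.4 CPM per kilobase, 3.09 times the level of Dpep1 (30.6), and its libraries stood clear of it. Npr3 (13.8), Nnat (13.1) and Enpep (9.71) followed, then Agt (5.78), Trim14 (2.30) and Mest (1.23). Overlap was seen between Npr3 and Nnat, between Nnat and Enpep and between Trim14 and Mest. For scale, Adipoq, the adiponectin gene, was at 525 in WT and 352 in AKO, and Ucp1 at 9115 and 2844.

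Because Adipoq itself fell, by 0.58 ± 0.18 on the log2 scale (edgeR adjusted p = 0.0211, a call lost when AKO replicate 1, AKO replicate 3 or WT replicate 2 was left out, at -0.81 to -0.21 over the 15 alternatives), each gene was also read per 1000 Adipoq reads. On this scale Sncg was 8.86-fold, Trim14 6.74-fold, Nnat 3.24-fold and Dpep1 2.54-fold higher in AKO by the ratio of means, and the groups did not overlap. Mest, at 4.14, 2.69 and 5.23 in WT and 7.34, 11.9 and 9.97 in AKO, did not overlap either. Nor did Enpep, at 58.1, 29.1 and 50.5 in WT and 97.2, 89.2 and 98.2 in AKO. Agt and Npr3 overlapped on this scale too. The order of Mest and Enpep libraries thus depended on what the reads were set against.

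**Figure D5:**
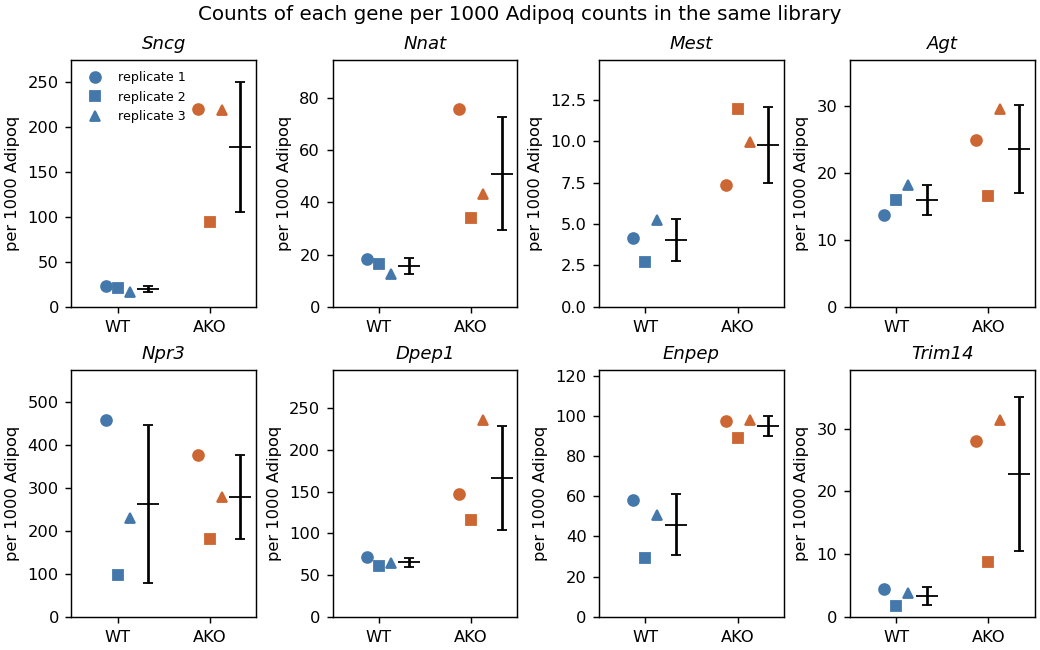
Reads of 8 of the genes per 1000 Adipoq reads in each library (vertical axis, WT and AKO), with the mean ± SD of 3 libraries. The groups separate for Sncg, Trim14, Nnat, Dpep1, Mest and Enpep and overlap for Agt and Npr3.

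The genes whose pattern over the 6 libraries lay closest to Sncg, by the root mean square difference of centred log2(CPM + 1) values with genes averaging under 5 CPM left out, were Slc7a5, the large neutral amino acid transporter (0.18), Apobec1, a cytidine deaminase (0.20), and Slfn2, a Schlafen gene of leukocytes (0.21). Closest to Nnat were S100a4 (0.13), a calcium-binding protein of fibroblasts and leukocytes, Cd63 (0.15), a tetraspanin of lysosomes, and Itga7 (0.18), an integrin of muscle. Closest to Mest were Nrip1 (0.05), a corepressor that holds down thermogenic genes, Gk5 (0.06) and Slc4a7 (0.14), a bicarbonate transporter. Among the 9 genes themselves, Sncg was most like Trim14 (0.52) and Mest most like Enpep (0.24). These distances rest on 6 libraries that share the same groups. Predicted genes (Gm, Rik and LOC symbols) and rows with dates or repeated symbols were also left out when the closest genes were ranked.

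Of 12 skeletal muscle markers 11 rose, with a summed level of 279 to 589 CPM in WT and 1012 to 2000 CPM in AKO. Endothelial markers summed to 965 to 1039 CPM in WT and 819 to 969 in AKO, and of 9 tested 1 rose and 2 fell. The mesothelial, T and NK, B and neutrophil lists summed to at most 15.8 CPM in any library. The part of macrophages, fibroblasts, T, NK and B cells and muscle in the levels of Sncg, Nnat, Dpep1 and the other genes was not tested.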

How the data were processed

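BAT mRNA of 3 WT and 3 AKO libraries was sequenced, and the authors deposited whole-number counts per gene without normalization. The study's methods describe STAR, HTSeq and DESeq2. The submitters' processing notes give Bowtie2 and RSEM 1.3.1 in place of the first 2, with DESeq2 1.4.5 and the mm10 build. No source used here gives the annotation release, the strand setting or the treatment of reads with several matches.

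Counts were fitted with edgeR 4.0.16 (R 4.3.3) by the quasi-likelihood test with TMM factors and filterByExpr, which removed 0.226% of counts, and p-values were adjusted by Benjamini-Hochberg over 13007 genes. Library totals of 6540619 to 8461685 set the precision, with a common coefficient of variation of 0.144. DESeq2 1.42.0, limma 3.58.1 (voom), 4 other scalings, 2 other filters, each library left out and a replicate block were alternatives. In the table, 27 rows carry dates in place of symbols (0.134% of counts). The fit was tested on simulated data. Positions come from GENCODE M21 (GRCm38) and promoters from RefSeq (GRCm38.p6).

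The 9 genes and all lists were chosen with earlier results of these data known. Besides the 9 genes, up to 4 called genes of lowest p per list were named, with Sncb, imprinted neighbours and the 3 closest patterns. H19, Zrsr1, the host genes, Nans, Mavs, Oplah, Ren1, Agtr1a, Agtr1b, Agtr2, Retn, Slc7a10, Trim30d, Wt1 and Ucp1 were named after their values were seen or for their role.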

Additional observations from a re-analysis of the deposited data

How the results depend on the processing

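Sncg, Trim14, Nnat and Dpep1 kept their direction and their call under all 15 alternatives. Agt turned to 0.013 with library totals and to 0.31 with pan-adipocyte scaling, and Npr3 ranged from -0.86 to 0.11 with single libraries left out. With pan-adipocyte scaling, called genes numbered 1 in the natriuretic peptide system, 10 among brown fat markers and 3 among pan-adipocyte genes, against 3, 16 and 6. With single libraries left out, called maternally expressed imprinted genes ranged from 7 to 12 and called pan-adipocyte genes from 2 to 6. The cause was not tested. With the longest transcript in place of merged exons, 7 levels per kilobase moved by more than 1 SD of their 3 libraries, and others by less. Replicate numbers did not pair the samples: same-numbered libraries correlated at -0.02, 0.01 and 0.18 in their deviations. With the replicate block 4926 genes were called against 4897, and 4 of the 9 genes. Mest had 17 to 59 reads a library. Tcf21 had 0 reads, which in a single library allows a level of up to 0.360 to 0.427 CPM (3 counts).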
